A study of Homo sapiens with 9 samples.

Results

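The heat shock proteins and chaperonins described here are the genes that the count files name with 39 symbols, from the heat shock factors HSF1 and HSF2 to the 8 subunits of the cytosolic chaperonin. They were chosen by name, and the 39 symbols matched 40 of the 60683 genes in the files, because HSPA14 is listed under a pair of gene identifiers. All 40 passed the filter on low counts, as did 16159 genes in all. Most of the products work in the cytosol and nucleus, but HSPA9, HSPD1, HSPE1 and TRAP1 encode chaperones of the mitochondrial matrix and are treated here as a group of their own.

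Messenger RNA was sequenced from cells labelled HCT 15, a line derived from a human colorectal adenocarcinoma and of genotype WT. There were 3 libraries of cells adapted to oxaliplatin, 3 of cells adapted to sorafenib and 3 of untreated cells, all grown in RPMI1640 with serum. Oxaliplatin, a platinum compound that crosslinks DNA, started at 0.5 µM for 7 days. Doses of 1, 2 and 4 µM followed from day 10 up to day 30, and the cells were then kept at 4 µM. Sorafenib is a kinase inhibitor that acts on RAF and on receptors such as those for VEGF, and its doses are not in the labels. Each group carries 1 library code in its titles, and nothing says that its 3 libraries came from separate cultures, so p-values rest on the spread among these libraries alone, and that spread may be technical.

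Heat shock proteins hold unfolded proteins and help them fold. HSP70 proteins bind exposed stretches of a client with J proteins as partners that deliver it, HSP110-type proteins and BAG proteins exchange the nucleotide that HSP70 holds, and HSP90 finishes the folding of kinases and steroid receptors with co-chaperones such as STIP1 and AHSA1. Small heat shock proteins keep unfolded proteins from clumping. The chaperonin of the cytosol, also called TRiC, is a ring complex of TCP1 and the CCT subunits that folds actin and tubulin, and HSPD1 with its lid HSPE1 forms the corresponding chamber of mitochondria. When unfolded proteins build up, HSF1 binds heat shock elements, repeats of GAA in alternating orientation, and turns on many of these genes.

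Total counts were between 15797076 and 20936536 per library. The cells went against their labelled tissue: all 14 genes of a colorectal epithelial list had a median under 1 CPM (counts per 1000000 of the library's total, scaled with TMM factors), and 8 of them, among them CDX1, CDX2, CDH1 and KRT20, had no count in any library. PAX8 and HAVCR1, which mark renal epithelium, had medians of 336 and 173 CPM. Of the 10 renal genes 3, CA9, NDUFA4L2 and EMX2, had a median under 1 CPM, and EMX2 had no count in any library. The 10 genes summed to 757 to 796 CPM in oxaliplatin, 671 to 728 CPM in sorafenib and 463 to 609 CPM in untreated libraries. Of 6 immune genes 5 had a median under 1 CPM, the exception being CD68 at 27.8 CPM, and of 6 fibroblast and endothelial genes 5 did, the exception being PDGFRB at 3.96 CPM. Whether the shift in the renal sum has a part in the results below was not tested. Among the 40 chaperone genes, untreated 1 was the lowest untreated library for 26, and sorafenib 1 was the highest sorafenib library for 25. Counts of calls are therefore also given without both. These libraries were picked from the values of the same genes and lie toward the other group. Leaving them out favours a fall against untreated, so those counts are no separate evidence for one.

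Heat shock elements were searched for by their letters before the annotated starts. RefSeq promoter entries for GRCh38.p14 existed for 34 of the 39 genes, with the 250 bases before each annotated start searched on both strands. The 3-unit heat shock element, GAA, TTC and GAA in a row with 2 free bases after each of the first and the second, was in the window of 6 genes, HSPA8, HSP90AA1, HSP90AB1, CHORDC1, DNAJB6 and HSPD1, and in that of 152 of 27305 genes in the RefSeq table, a share of 0.557%. Counted by window, since a gene can have several starts, it was in 6 of 50 windows of the chaperone genes and in 155 of 35116 windows of all genes, a share of 0.441%. The shorter GAANNTTC, part of the longer element, was in the windows of 16 of the 34 genes and of 7.05% of all genes, and the overlapping TTCNNGAA was in those of 8 of the 34 and of 8.12% of all genes. Windows with the 3-unit element are shown for 4 of these genes, each called in at least 1 comparison. They read 5′ to 3′ on the gene's strand, up to the base before the start, with the element in capitals, in its reverse complement where it lies on the other strand. The windows lie at chr11:123062137-123062386 on the minus strand for HSPA8, chr14:102087045-102087294 on the minus strand for HSP90AA1, chr11:90223050-90223299 on the minus strand for CHORDC1 and chr7:157336754-157337003 on the plus strand for DNAJB6.
HSPA8: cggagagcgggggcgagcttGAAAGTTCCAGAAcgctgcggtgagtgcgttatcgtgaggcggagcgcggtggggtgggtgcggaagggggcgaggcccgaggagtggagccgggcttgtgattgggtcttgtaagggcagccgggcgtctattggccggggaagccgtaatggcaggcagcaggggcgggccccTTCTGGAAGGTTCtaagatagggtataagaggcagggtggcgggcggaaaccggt
HSP90AA1: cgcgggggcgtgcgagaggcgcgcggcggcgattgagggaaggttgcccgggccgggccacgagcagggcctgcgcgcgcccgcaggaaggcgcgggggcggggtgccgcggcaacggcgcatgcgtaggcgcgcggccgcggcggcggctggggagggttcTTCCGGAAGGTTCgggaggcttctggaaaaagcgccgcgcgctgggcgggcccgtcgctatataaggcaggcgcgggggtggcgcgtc
CHORDC1: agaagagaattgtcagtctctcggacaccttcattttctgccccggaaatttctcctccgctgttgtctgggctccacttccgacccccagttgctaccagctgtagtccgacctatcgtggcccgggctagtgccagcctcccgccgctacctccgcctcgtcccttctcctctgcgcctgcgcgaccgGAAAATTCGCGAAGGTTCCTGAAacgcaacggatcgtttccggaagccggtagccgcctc
DNAJB6: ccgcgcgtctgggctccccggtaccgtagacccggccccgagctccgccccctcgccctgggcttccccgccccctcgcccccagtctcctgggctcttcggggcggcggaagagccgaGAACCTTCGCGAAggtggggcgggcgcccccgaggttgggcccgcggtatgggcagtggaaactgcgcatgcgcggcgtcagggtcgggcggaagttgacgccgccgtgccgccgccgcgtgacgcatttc
The CHORDC1 window held 3 matches that overlap in 1 run, and the HSPA8 window held 2 separate matches. HSP90AA1 has a second annotated start, whose window held none.

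HSPD1 and HSPE1 are transcribed away from each other from neighbouring starts. The 104 bases between those starts, at chr2:197500275-197500378 and written on the plus strand, held 0 matches to any of the 3 motifs, and they are shown because both genes fell in oxaliplatin. The 3-unit element of HSPD1 lay before another of its annotated starts, in the window chr2:197499841-197500090 on the minus strand.
HSPD1 to HSPE1: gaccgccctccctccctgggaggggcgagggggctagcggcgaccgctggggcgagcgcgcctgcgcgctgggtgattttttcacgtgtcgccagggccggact
A match is a description of these letters, and no binding was measured.

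**Figure D1:**
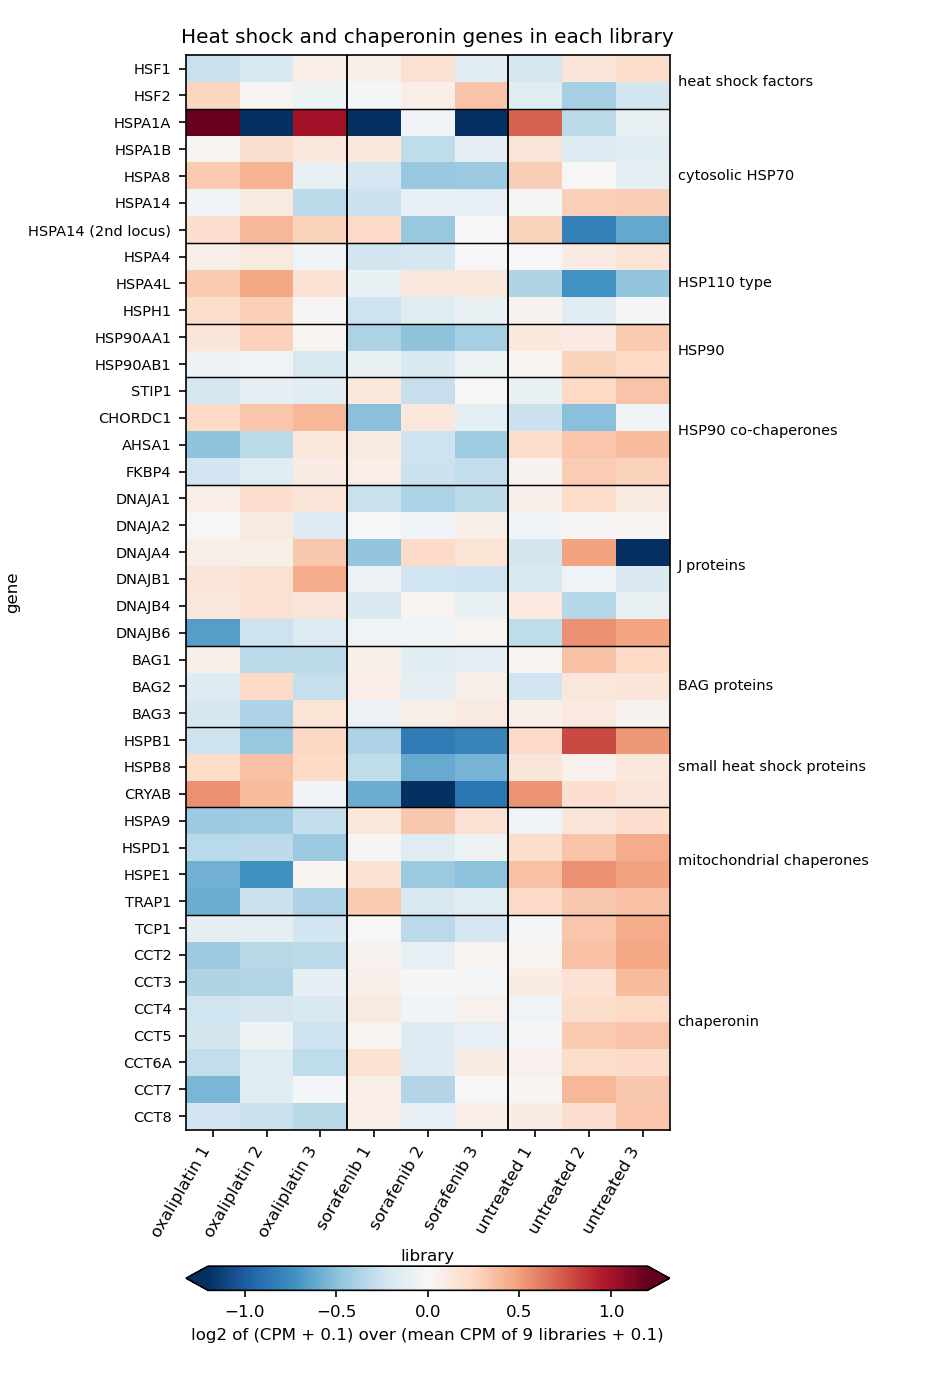
Each of the 40 chaperone genes (rows, grouped by role) in each of the 9 libraries (columns), as log2 of (CPM + 0.1) over (mean CPM of the 9 libraries + 0.1), with red above and blue below the gene's own mean. Most chaperonin and mitochondrial rows are darkest red in untreated 2 and 3 and blue in the oxaliplatin libraries, and the small heat shock protein rows are blue in sorafenib.

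Levels were compared between genes per kilobase of exon, over the union of all annotated exons of each gene. Which of these exons the cells use was not examined, so rankings and shares between genes are approximate. HSP90AB1, the constitutive HSP90, was the highest of the 40 genes in each group, at a mean of 733 CPM per kb in oxaliplatin, 730 in sorafenib and 891 in untreated libraries. HSPB1 followed at 413, 286 and 649 CPM per kb in the same groups. HSPA8, the constitutive HSP70, stood at 202 CPM per kb in oxaliplatin, 134 in sorafenib and 181 in untreated libraries. The stress-induced HSP70 genes were low as counted: HSPA1A averaged 5.86, 1.57 and 4.46 CPM per kb in these groups, and HSPA1B 0.407, 0.347 and 0.361. Of the 100-base windows of HSPA1A 69.9% occur exactly in HSPA1B, and 36.5% of the exonic bases of HSPA1B overlap AL671762.1 on the same strand. How reads that fit more than 1 gene were counted is not given, so the true levels may be higher. Over the 40 genes together the summed level was 10650, 11100 and 10650 CPM in oxaliplatin 1 to 3, 11210, 9972 and 10590 CPM in sorafenib 1 to 3, and 12350, 13920 and 14060 CPM in untreated 1 to 3. Both sets of drug-adapted libraries therefore lay below all 3 untreated ones in the summed level.

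**Figure D2:**
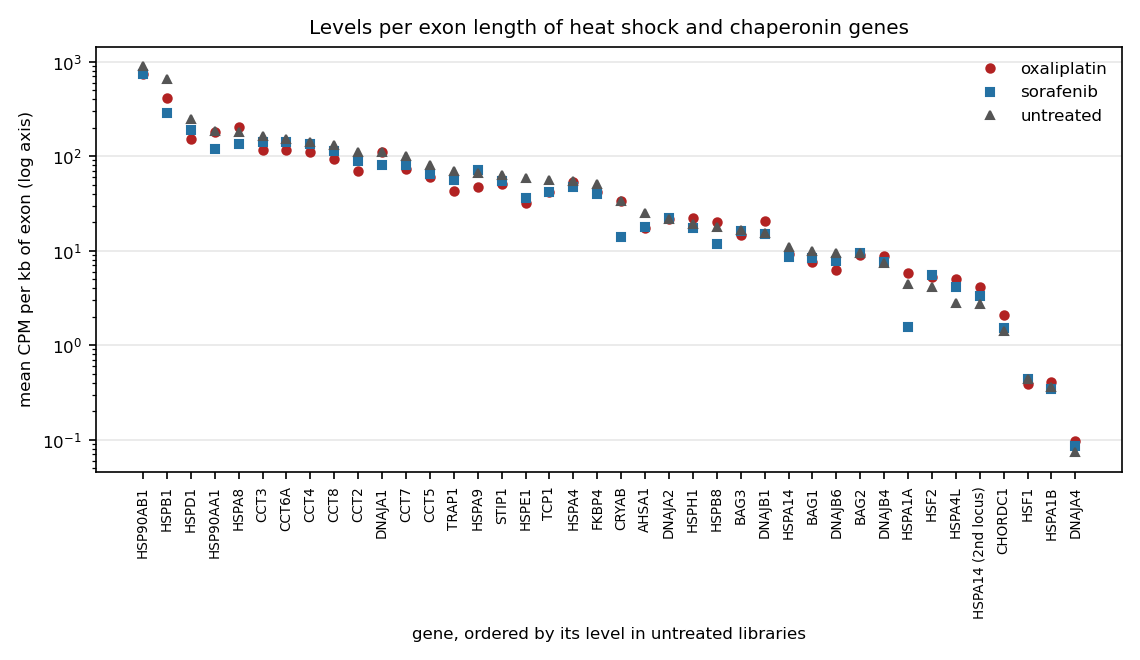
Mean level per exon length (CPM per kb, log axis) of the 40 genes in oxaliplatin (circles), sorafenib (squares) and untreated libraries (triangles), ordered by the untreated level. The genes run from HSP90AB1 at 891 CPM per kb in untreated libraries down to DNAJA4 at 0.0737 CPM per kb.

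Each gene was put through the quasi-likelihood test of edgeR. Its p was adjusted (Benjamini-Hochberg) across the 16159 genes that passed the filter, and it was called at an adjusted p under 0.05. In oxaliplatin against untreated cells 16 of the 40 genes were called, 3 higher and 13 lower. Of all genes tested 31.7% were called in this comparison, 16.2% higher and 15.5% lower. The median log2 fold change was -0.23 over the 40 genes and 0.02 over all genes. In sorafenib against untreated cells 6 were called, 1 higher and 5 lower, where 4.80% of all genes were called, 2.82% higher and 1.97% lower, and the medians were -0.25 and 0. Between the drugs, 7 were called in oxaliplatin against sorafenib, 6 higher and 1 lower, where 10.3% of all genes were called, 5.20% higher and 5.07% lower. The medians there were about 0 for both, at -0.01 over the 40 genes and -0.01 over all genes. Both comparisons with untreated cells use the same 3 untreated libraries. Without untreated 1 and sorafenib 1 the counts were 24, 16 and 7 of the 40 genes in the order of comparisons above, against 5820, 2934 and 1292 of all genes. Scaled by library size only, the 40 genes split into 4 higher and 7 lower in oxaliplatin against untreated, and all genes into 3395 higher and 1794 lower, where the TMM scaling gave 2619 and 2504. The same scaling split all calls between the drugs, oxaliplatin against sorafenib, into 1072 higher and 599 lower, where TMM gave 840 and 819. A correction for GC content and length split those of sorafenib against untreated into 518 higher and 602 lower, where there were 456 and 319 without it. Counted by values instead, the 3 libraries of one group did not overlap the 3 of the other for 21 of the 40 genes in oxaliplatin against untreated (48.1% of all genes tested), with 15 all lower (23.2%) and 6 all higher (24.9%). The same held for 16 genes in sorafenib against untreated (29.8%), with 14 all lower (14.3%) and 2 all higher (15.5%), and for 18 in oxaliplatin against sorafenib (34.9%), with 8 all lower (17.6%) and 10 all higher (17.3%). In bulk RNA, a lower level per cell and fewer cells with the transcript cannot be told apart.

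**Figure D3:**
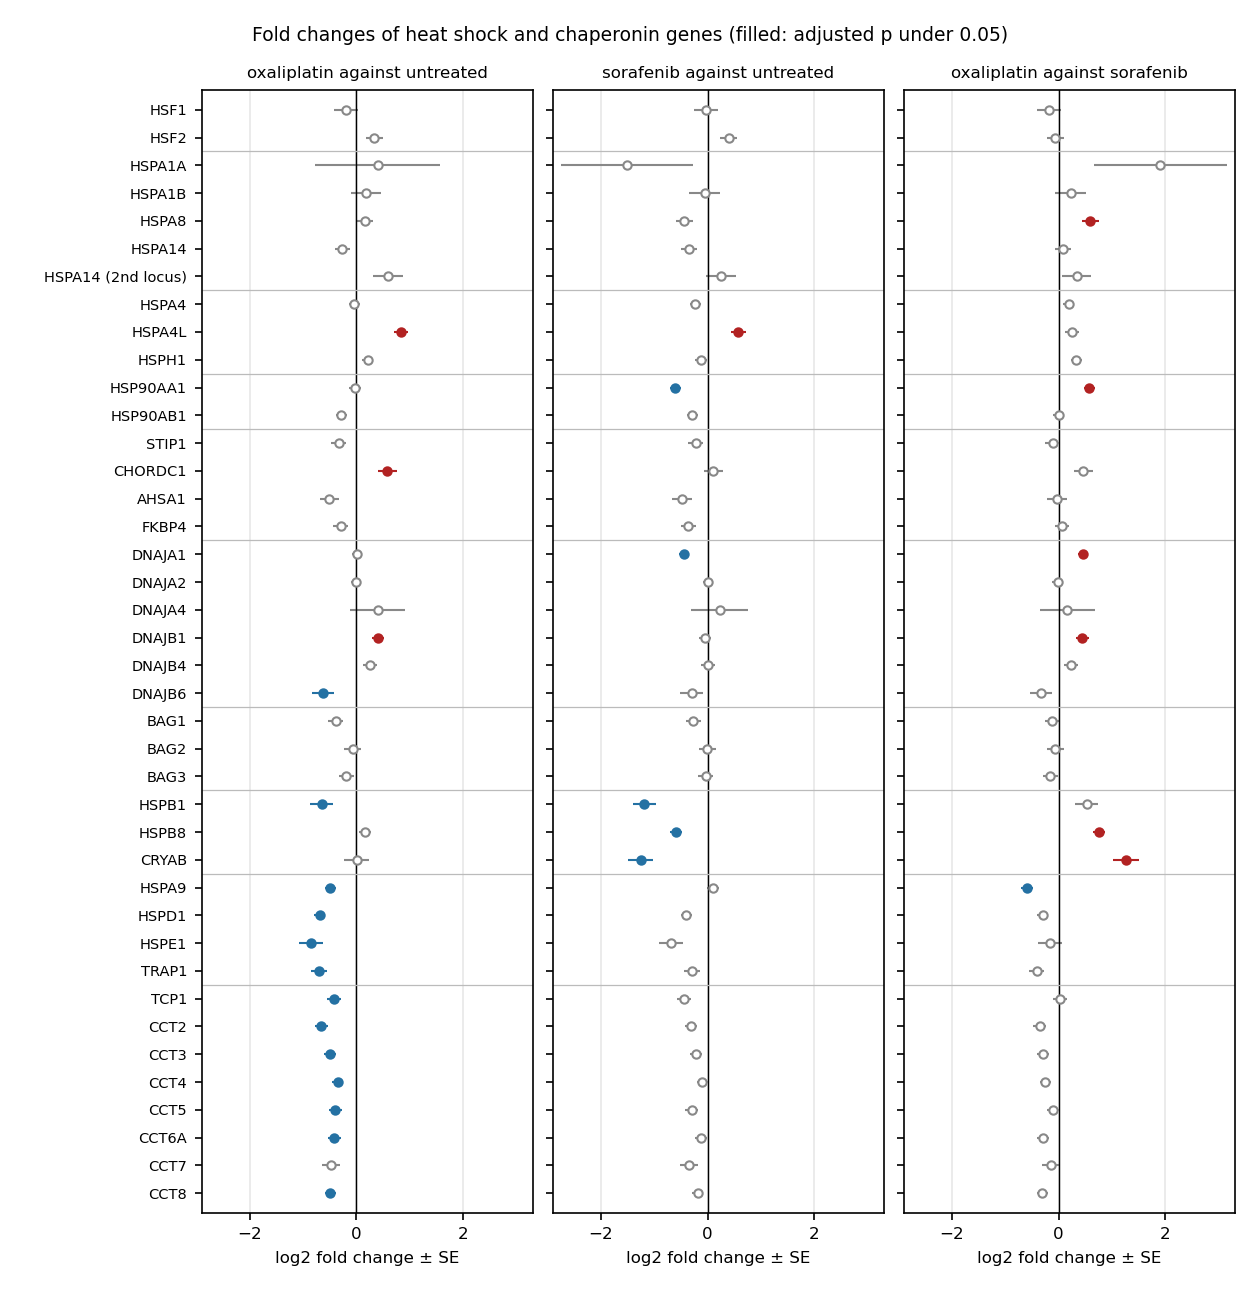
Log2 fold change with its standard error (x axis) for each of the 40 genes (y axis, grouped by role) in the 3 comparisons, with filled red points for genes called higher, filled blue for genes called lower and open grey points for the rest. The 8 chaperonin and 4 mitochondrial genes lie left of 0 in oxaliplatin against untreated, and HSPB1, HSPB8 and CRYAB lie left of 0 in sorafenib against untreated.

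The chaperonin subunits fell together in oxaliplatin-adapted cells. Of the 8 subunits 7 were called lower, beside 15.5% of all genes tested, and the median log2 fold change of the 8 was -0.45. CCT2 had 285, 306 and 309 CPM in the oxaliplatin libraries, 397, 359 and 391 CPM in the sorafenib libraries and 396, 493 and 533 CPM in the untreated ones. Every oxaliplatin library was below every untreated one, and CCT2 fell by 0.66 on the log2 scale (SE 0.12, adjusted p = 0.00472), the largest fall of the 8. CCT3 had 438, 442 and 519 CPM in oxaliplatin, 588, 558 and 559 CPM in sorafenib and 600, 637 and 735 CPM in untreated libraries. CCT8 had 320, 312 and 298 CPM in oxaliplatin, 398, 350 and 397 CPM in sorafenib and 399, 431 and 473 CPM in untreated libraries. In both genes the oxaliplatin values lay below all others, with log2 fold changes against untreated of -0.50 (SE 0.11, adjusted p = 0.0105) for CCT3 and -0.49 (SE 0.10, adjusted p = 0.00764) for CCT8.

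TCP1, the subunit after which the complex was named, had 213, 211 and 197 CPM in oxaliplatin, 229, 184 and 200 CPM in sorafenib and 227, 290 and 313 CPM in untreated libraries. CCT4 had 308, 317 and 322 CPM in oxaliplatin, 392, 356 and 378 CPM in sorafenib and 355, 421 and 429 CPM in untreated libraries. These values show no overlap of oxaliplatin with untreated libraries, with untreated 1 the nearest to them in both genes. CCT5 had 343, 383 and 337 CPM in oxaliplatin, 408, 359 and 374 CPM in sorafenib and 395, 496 and 507 CPM in untreated libraries. CCT6A had 433, 480 and 431 CPM in oxaliplatin, 602, 476 and 566 CPM in sorafenib and 550, 620 and 621 CPM in untreated libraries. The falls of these 4 genes against untreated had log2 fold changes of -0.42 for TCP1 (adjusted p = 0.0398), -0.35 for CCT4 (adjusted p = 0.0282), -0.40 for CCT5 (adjusted p = 0.032) and -0.41 for CCT6A (adjusted p = 0.023). These 4 calls ended when single libraries were left out: for TCP1 any oxaliplatin library, sorafenib 3 or untreated 2 or 3 (adjusted p 0.0567 to 0.137), for CCT4 oxaliplatin 1 or 2 or untreated 2 or 3 (0.076 to 0.098), for CCT5 any oxaliplatin library or untreated 2 or 3 (0.0505 to 0.108), and for CCT6A oxaliplatin 1 or 3 or untreated 2 or 3 (0.058 to 0.0838). CCT7 alone was not called, with -0.48 on the log2 scale (SE 0.17) at an adjusted p of 0.0552. DESeq2 called all 8.

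In sorafenib against untreated cells edgeR called 0 of the 8 chaperonin subunits, 3 had an unadjusted p under 0.05 and DESeq2 called 0. All 8 log2 fold changes were negative, from -0.44 for TCP1 to -0.10 for CCT4, with a median of -0.25. Between the drugs, oxaliplatin against sorafenib, edgeR and DESeq2 called 0 of the 8 and 5 had an unadjusted p under 0.05, so the fall in oxaliplatin was not shown to differ from the values in sorafenib. The summed level of the 8 subunits was 2546, 2725 and 2713 CPM in oxaliplatin, 3333, 2879 and 3166 CPM in sorafenib and 3229, 3786 and 3991 CPM in untreated libraries. The oxaliplatin sums lay below all others, and sorafenib 1 lay above untreated 1. For each of the 8 subunits untreated 1 was the lowest untreated library and sorafenib 1 the highest sorafenib library. Per kilobase of exon, TCP1 was the lowest subunit in all 9 libraries and CCT3 or CCT6A the highest. The level of the highest was 2.56, 2.87 and 3.23 times that of TCP1 in oxaliplatin, 3.32, 3.72 and 3.58 times in sorafenib and 3.24, 2.70 and 2.88 times in untreated libraries, so the 3 sorafenib libraries lay above the 6 others in this ratio, which was not tested. About 30.1% of the exonic bases of CCT5 lie opposite another annotated gene, and the strand setting of the counts is not given in the sources used here.

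**Figure D4:**
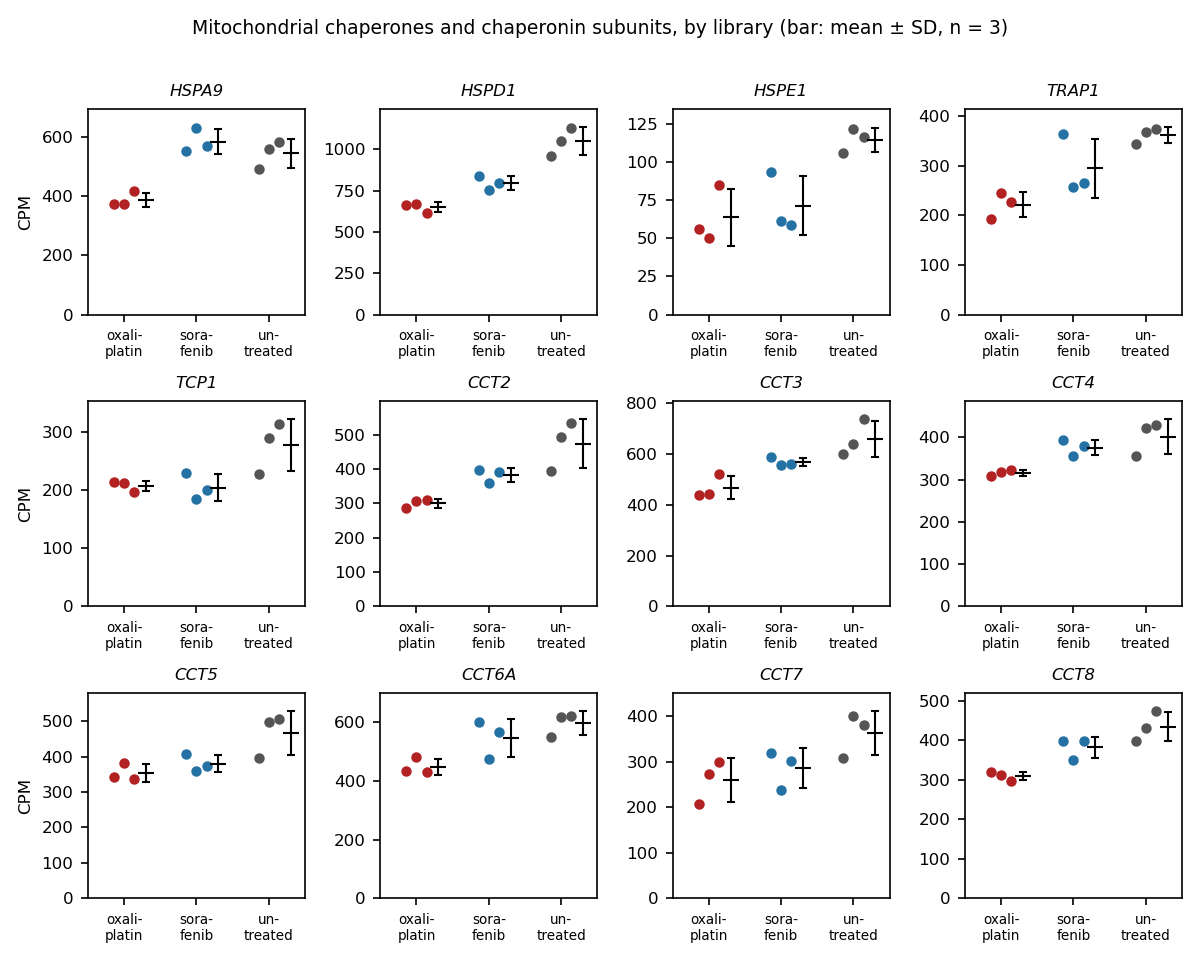
CPM of the 4 mitochondrial chaperones and 8 chaperonin subunits in each library (points) with the mean and SD of each group (bars, n = 3), each panel starting at 0. Oxaliplatin points lie below all untreated points in every panel, while sorafenib points reach or cross the untreated range in most.

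The 4 mitochondrial chaperones fell in oxaliplatin-adapted cells as well, 4 of 4 called lower, beside 15.5% of all genes tested, with a median log2 fold change of -0.70, against 0.02 over all genes. HSPD1, the mitochondrial HSP60, had 663, 670 and 614 CPM in oxaliplatin, 841, 753 and 797 CPM in sorafenib and 962, 1053 and 1130 CPM in untreated libraries. The 3 groups did not overlap at all, and HSPD1 fell by 0.69 on the log2 scale in oxaliplatin against untreated (SE 0.10, adjusted p = 0.00221), which is a level lower by 38.1%. Its log2 fold change in sorafenib against untreated was -0.40 (SE 0.10, adjusted p = 0.0533). Of 19 other settings 5 called it. They were DESeq2 (adjusted p = 0.0105), the correction for GC content and length (0.0278) and the omissions of sorafenib 1, of untreated 1 and of both. Those omissions favour a fall, so they are no separate evidence for one. The rest did not call HSPD1, with adjusted p up to 0.204. HSPE1, its co-chaperonin, had 56.0, 50.1 and 85.2 CPM in oxaliplatin, 93.7, 61.3 and 59.0 CPM in sorafenib and 106, 122 and 116 CPM in untreated libraries. Every drug-adapted library was below every untreated one. The log2 fold change of HSPE1 in oxaliplatin was -0.85 (SE 0.23, adjusted p = 0.0202), and that call ended without oxaliplatin 1 or 2 or untreated 2 or 3 (adjusted p 0.0545 to 0.0757) and once GC content and length were corrected for (-0.59, adjusted p = 0.0558). In sorafenib the log2 fold change of HSPE1 was -0.69 (SE 0.23, adjusted p = 0.101), while DESeq2 gave an adjusted p of 0.0414. HSPE1 has 26 annotated pseudogenes, whose summed level reached 12.0% of its own, and shares 9.7% of its exonic bases with the readthrough gene HSPE1-MOB4 on the same strand. About 14.2% of the exonic bases of HSPE1 lie opposite HSPD1.

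TRAP1, the HSP90 of mitochondria, had 194, 245 and 227 CPM in oxaliplatin, 364, 257 and 264 CPM in sorafenib and 344, 367 and 374 CPM in untreated libraries. Sorafenib 1 was the only sorafenib library inside the untreated range. The log2 fold change of TRAP1 in oxaliplatin against untreated was -0.71 (SE 0.15, adjusted p = 0.00754), and 29.3% of its exonic bases lie opposite DNASE1. HSPA9, the mitochondrial HSP70 that pulls proteins in through the import channel, had 375, 376 and 417 CPM in oxaliplatin, 552, 633 and 570 CPM in sorafenib and 492, 560 and 584 CPM in untreated libraries. Oxaliplatin lay apart, below the 6 other libraries, while the sorafenib and untreated libraries overlapped. HSPA9 fell by 0.49 on the log2 scale against untreated (SE 0.11, adjusted p = 0.00904) and by 0.59 against sorafenib (SE 0.11, adjusted p = 0.00991), so its fall differed between the drugs in a direct test. The difference between the drugs lost its call without oxaliplatin 1 (adjusted p = 0.0538). The falls of HSPA9, HSPD1, TRAP1, CCT2, CCT3 and CCT8 in oxaliplatin against untreated kept their call under all 19 other settings tried.

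The small heat shock proteins fell in sorafenib-adapted cells, 3 of 3 called lower, beside 1.97% of all genes tested. All 3 calls ended when sorafenib 2, sorafenib 3, untreated 2 or untreated 3 was left out (adjusted p 0.0612 to 0.109). In the fit of only the 2 groups compared, CRYAB (adjusted p = 0.055) and HSPB8 (adjusted p = 0.0627) also lost their call. CRYAB, the alpha B crystallin, had 120, 107 and 79.9 CPM in oxaliplatin, 54.5, 28.4 and 45.0 CPM in sorafenib and 119, 94.3 and 91.5 CPM in untreated libraries. The sorafenib values lay below all others and the oxaliplatin and untreated values overlapped. The log2 fold change of CRYAB was -1.25 in sorafenib against untreated (SE 0.24, adjusted p = 0.025), 0.01 in oxaliplatin against untreated (adjusted p = 0.985) and 1.26 in oxaliplatin against sorafenib (SE 0.24, adjusted p = 0.0129), the last being lost without oxaliplatin 1 (adjusted p = 0.0533). HSPB8, which works with BAG3 in clearing misfolded proteins, had 55.0, 60.1 and 55.6 CPM in oxaliplatin, 38.1, 30.9 and 32.0 CPM in sorafenib and 52.0, 48.8 and 51.3 CPM in untreated libraries. Again the sorafenib libraries stood alone at the bottom, with a log2 fold change of -0.59 against untreated (SE 0.11, adjusted p = 0.0238), and HSPB8 was 0.76 higher on the log2 scale in oxaliplatin than in sorafenib (SE 0.11, adjusted p = 0.00411). About 20.6% of the exonic bases of CRYAB lie opposite HSPB2 and its readthrough gene.

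HSPB1, the HSP27 that also caps actin filaments, fell in both comparisons with untreated cells. It had 619, 535 and 871 CPM in oxaliplatin, 569, 411 and 423 CPM in sorafenib and 859, 1269 and 1055 CPM in untreated libraries. Sorafenib lay below all untreated libraries, while oxaliplatin 3 lay above untreated 1. The log2 fold change of HSPB1 was -1.18 in sorafenib (SE 0.22, adjusted p = 0.0204) and -0.65 in oxaliplatin (SE 0.21, adjusted p = 0.042), and the difference between the drugs was not called (log2 0.53, SE 0.21, adjusted p = 0.14). The fall in oxaliplatin lost its call without oxaliplatin 1 or 2, sorafenib 2 or 3 or untreated 2 or 3 (adjusted p 0.0526 to 0.142) and with the correction for GC content and length (-0.28, adjusted p = 0.126).

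HSP90AA1, DNAJA1 and HSPA8 were higher in oxaliplatin than in sorafenib. HSP90AA1, the stress-responsive HSP90, had 930, 1022 and 862 CPM in oxaliplatin, 648, 603 and 638 CPM in sorafenib and 918, 902 and 1047 CPM in untreated libraries. The 3 sorafenib libraries were the lowest of the 9, and oxaliplatin overlapped with untreated. Its log2 fold change was -0.60 in sorafenib against untreated (SE 0.11, adjusted p = 0.0182), -0.03 in oxaliplatin against untreated (adjusted p = 0.866) and 0.58 in oxaliplatin against sorafenib (SE 0.11, adjusted p = 0.0105). The last of these, and the HSPB8 difference between the drugs, kept their call under all 19 settings. The log2 difference of HSP90AB1 between the drugs was 0.01 (SE 0.10, adjusted p = 0.977). It had 2233, 2270 and 2047 CPM in oxaliplatin, 2219, 2065 and 2239 CPM in sorafenib and 2397, 2812 and 2755 CPM in untreated libraries. All drug-adapted libraries lay below all untreated ones, but edgeR called neither comparison, at log2 fold changes of -0.28 in oxaliplatin (SE 0.10, adjusted p = 0.0626) and -0.29 in sorafenib (SE 0.10, adjusted p = 0.123). For oxaliplatin HSP90AB1 was called under 3 of the 19 other settings. They were DESeq2 (adjusted p = 0.0447), edgeR without untreated 1 (0.03) and edgeR without untreated 1 and sorafenib 1 (0.0233). Leaving out untreated 1, its lowest untreated library, favours a fall, so those omissions are no separate evidence for one. The rest did not call HSP90AB1, with adjusted p up to 0.205. HSP90AA1 made up 19.1 to 20.4% of the level of both per kilobase in oxaliplatin, 13.9 to 14.2% in sorafenib and 15.4 to 17.9% in untreated libraries. DNAJA1, a J protein that works with HSPA8, had 289, 313 and 301 CPM in oxaliplatin, 227, 209 and 220 CPM in sorafenib and 284, 317 and 293 CPM in untreated libraries. DNAJA1 was likewise lowest in the sorafenib libraries, with log2 fold changes of -0.45 in sorafenib against untreated (SE 0.09, adjusted p = 0.0293) and 0.46 in oxaliplatin against sorafenib (SE 0.09, adjusted p = 0.0144), and the difference between the drugs lost its call without oxaliplatin 2, sorafenib 2 or sorafenib 3 (adjusted p 0.0541 to 0.0591).

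HSPA8 had 1036, 1118 and 788 CPM in oxaliplatin, 721, 611 and 614 CPM in sorafenib and 1024, 834 and 775 CPM in untreated libraries. All 3 sorafenib libraries were below all 6 others. The log2 fold change of HSPA8 was 0.60 in oxaliplatin against sorafenib (SE 0.16, adjusted p = 0.0407), and that call ended without any of oxaliplatin 1 and 2, sorafenib 1 to 3 and untreated 2 and 3 (adjusted p 0.0511 to 0.141). Against untreated neither oxaliplatin nor sorafenib was called, at 0.16 (adjusted p = 0.464) and -0.44 (adjusted p = 0.122). The calls of CRYAB, HSPB8, HSPB1, HSP90AA1, DNAJA1 and HSPA4L in sorafenib against untreated all ended without any of sorafenib 2, sorafenib 3, untreated 2 and untreated 3 (adjusted p 0.0512 to 0.156). In those 4 omissions edgeR called 0 of the 40 genes, and 9 or 10 had an unadjusted p under 0.05. HSPA4L lost its call also without oxaliplatin 1 (adjusted p = 0.0709) or 2 (adjusted p = 0.0556), and DNAJA1 without oxaliplatin 1 (adjusted p = 0.0555).

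A few members were higher in drug-adapted cells. HSPA4L, an HSP110-type protein, had 57.3, 63.7 and 51.7 CPM in oxaliplatin, 43.4, 50.7 and 50.5 CPM in sorafenib and 35.8, 27.8 and 33.2 CPM in untreated libraries. The groups did not overlap, with oxaliplatin highest and untreated lowest. HSPA4L rose by 0.84 on the log2 scale in oxaliplatin (SE 0.13, adjusted p = 0.00304) and by 0.58 in sorafenib (SE 0.13, adjusted p = 0.0409). With the correction for GC content and length these were 0.25 (adjusted p = 0.0587) and 0.26 (adjusted p = 0.101). CHORDC1, an HSP90 co-chaperone, had 20.9, 22.4 and 23.5 CPM in oxaliplatin, 12.5, 19.6 and 16.3 CPM in sorafenib and 14.8, 12.6 and 17.4 CPM in untreated libraries. Oxaliplatin lay above all others, with a log2 fold change of 0.58 against untreated (SE 0.18, adjusted p = 0.0379). That call ended without any oxaliplatin library, sorafenib 3 or untreated 1 or 2 (adjusted p 0.0545 to 0.132) and with the GC and length correction (0.24, adjusted p = 0.281). CHORDC1 has 4 annotated pseudogenes whose level reached 7.51% of its own.

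DNAJB1, a J protein whose gene HSF1 turns on, had 69.6, 70.6 and 85.2 CPM in oxaliplatin, 59.7, 52.9 and 52.6 CPM in sorafenib and 54.7, 60.7 and 55.1 CPM in untreated libraries. It was highest in oxaliplatin, and the sorafenib and untreated libraries overlapped. The log2 fold change of DNAJB1 in oxaliplatin was 0.40 against untreated (SE 0.12, adjusted p = 0.0267) and 0.45 against sorafenib (SE 0.12, adjusted p = 0.0383). The first call ended without oxaliplatin 3 or untreated 1 or 3 (adjusted p 0.058 to 0.0867) and the second without any library other than untreated 1 (adjusted p 0.0509 to 0.122). DNAJB6, a J protein that suppresses polyglutamine clumps, had 74.1, 98.9 and 104.5 CPM in oxaliplatin, 114, 114 and 120 CPM in sorafenib and 95.0, 171 and 162 CPM in untreated libraries. DNAJB6 fell by 0.63 on the log2 scale in oxaliplatin against untreated (SE 0.21, adjusted p = 0.0465), but untreated 1 lay inside the oxaliplatin range, and the call ended without any library other than untreated 1 (adjusted p 0.0545 to 0.157).

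**Figure D5:**
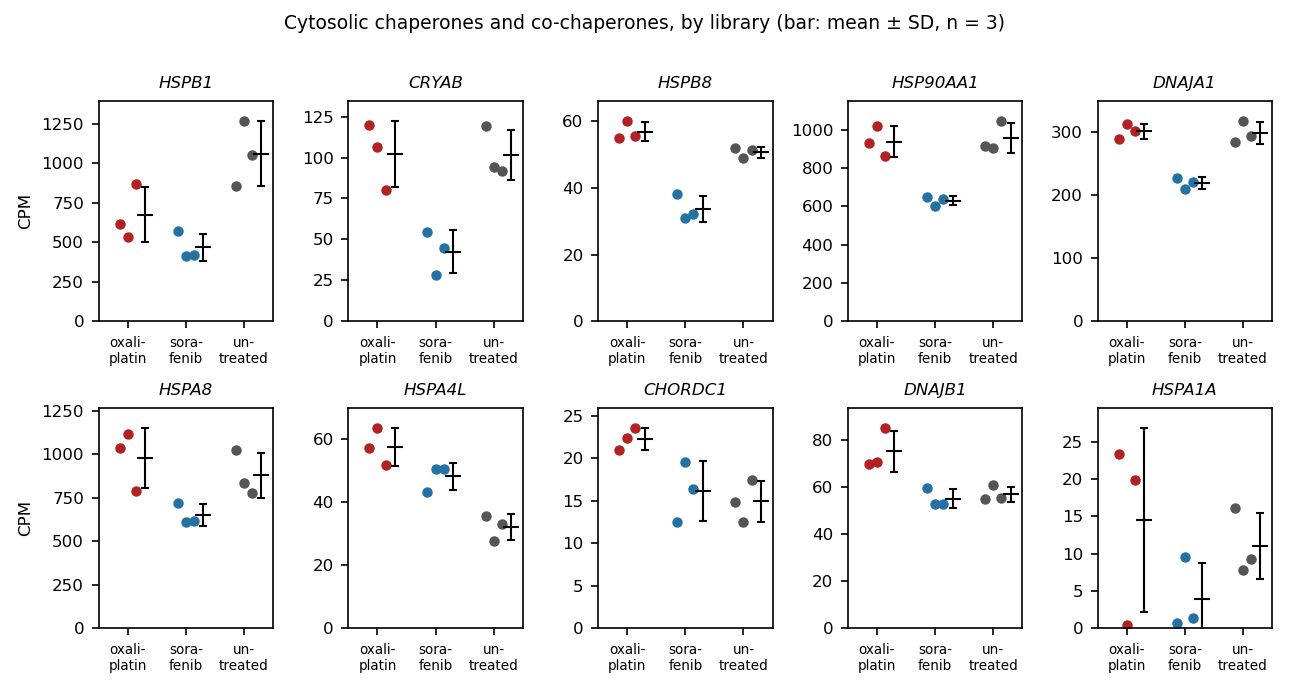
CPM of 10 cytosolic chaperones and co-chaperones in each library (points) with the mean and SD of each group (bars, n = 3, the lower bar cut at 0 for HSPA1A in sorafenib). HSPB8, HSP90AA1, DNAJA1 and CRYAB are lowest in the sorafenib libraries, HSPA4L and CHORDC1 are highest in the oxaliplatin ones, and HSPA1A scatters within groups.

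HSPA1A, HSPA1B, BAG3 and HSPH1, which heat shock induces, did not pass the test in either drug against untreated. Other inducible members did, as given above: DNAJB1 was called higher in oxaliplatin, HSPB1 lower in both drugs and HSP90AA1 lower in sorafenib. HSPA1A had 510, 8 and 326 counts in oxaliplatin, 14, 168 and 26 counts in sorafenib and 275, 142 and 174 counts in untreated libraries. Libraries of the same drug were spread widely and overlapped with the untreated range in counts, with log2 fold changes of 0.40 (SE 1.18, adjusted p = 0.823) in oxaliplatin and -1.51 (SE 1.24, adjusted p = 0.484) in sorafenib. HSPA1B had 21, 20 and 17 counts in oxaliplatin, 19, 13 and 16 counts in sorafenib and 18, 15 and 16 counts in untreated libraries. The transcripts of HSPA1A and HSPA1B are identical at 98.7% of 2150 aligned bases, and the genes lie 9792 bp apart on chromosome 6. How reads that fit both were counted is not given in the sources used here, so their levels and the split between them are uncertain. With their counts summed no call changed.

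BAG3, the co-chaperone of HSPB8, had 37.5, 33.4 and 48.5 CPM in oxaliplatin, 41.0, 45.4 and 46.7 CPM in sorafenib and 44.9, 47.0 and 44.3 CPM in untreated libraries. Its log2 fold changes were -0.19 (SE 0.14, adjusted p = 0.32) in oxaliplatin and -0.03 (SE 0.14, adjusted p = 0.91) in sorafenib. HSPH1, the main HSP110, had 189, 198 and 165 CPM in oxaliplatin, 137, 147 and 154 CPM in sorafenib and 167, 149 and 161 CPM in untreated libraries. Its values overlapped between each drug and untreated, with log2 fold changes of 0.21 (SE 0.11, adjusted p = 0.149) in oxaliplatin and -0.12 (SE 0.11, adjusted p = 0.493) in sorafenib. HSF1 itself was low, at 1.83, 1.95 and 2.37 CPM in oxaliplatin, 2.34, 2.55 and 2.04 CPM in sorafenib and 1.94, 2.49 and 2.60 CPM in untreated libraries. These overlap throughout, and HSF1 was not called in either comparison with untreated (adjusted p = 0.54 in oxaliplatin and 0.968 in sorafenib).

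By role, the rest of the 40 genes were as follows in oxaliplatin against untreated cells. Of the 5 cytosolic HSP70 genes edgeR and DESeq2 called 0, and 0 had an unadjusted p under 0.05. Of the 3 BAG genes edgeR called 0, 1 had an unadjusted p under 0.05 and DESeq2 called 1, which was BAG1 at a log2 fold change of -0.39. Among the 4 HSP90 co-chaperones edgeR called CHORDC1, 3 had an unadjusted p under 0.05 and DESeq2 called 2, CHORDC1 and AHSA1. The other log2 fold changes were -0.33 for STIP1, which hands clients from HSP70 to HSP90, -0.30 for FKBP4 and -0.51 for AHSA1, which speeds the ATP cycle of HSP90. For sorafenib against untreated, edgeR and DESeq2 called 0 of the 4 HSP90 co-chaperones with 2 at an unadjusted p under 0.05, 0 of the 5 cytosolic HSP70 genes with 2, and 0 of the 3 BAG genes with 0. Of the 2 heat shock factors, edgeR and DESeq2 called 0 in either drug, with 0 at an unadjusted p under 0.05 in oxaliplatin and 1 in sorafenib. The HSPA14 rows differ, with log2 fold changes in oxaliplatin of -0.26 (adjusted p = 0.191) for the longer locus at chr10:14838306-14871741 and 0.59 (adjusted p = 0.127) for the shorter one at chr10:14838160-14847018, and these loci overlap on the same strand.

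Other genes of the same pathways were read from 7 lists of 97 genes. The named calls among these genes were not followed through the 19 alternatives, except that DESeq2 calls were counted. In sorafenib against untreated, leaving out 1 library at a time gave 113 to 1743 calls among all genes, where all libraries together gave 775. Of 15 tested prefoldin, chaperonin cofactor and tubulin cofactor genes, with TBCE listed under a pair of identifiers, which bring unfolded actin and tubulin to the chaperonin or take tubulin from it, 7 were called lower and 0 higher in oxaliplatin against untreated, beside 15.5% and 16.2% of all genes. Their median log2 fold change was -0.54, against 0.02 over all genes. PFDN2, a prefoldin subunit, averaged 90.4 ± 19.2 CPM in oxaliplatin and 199 ± 44.1 CPM in untreated libraries (SD, n = 3 each), and fell by 1.14 on the log2 scale (SE 0.21, adjusted p = 0.00481). TBCB and TBCA, which handle free tubulin, had -0.89 (adjusted p = 0.0102) and -0.60 (adjusted p = 0.0107). In sorafenib against untreated edgeR called 0 of these 15, 4 had an unadjusted p under 0.05 and DESeq2 called 0. Between the drugs, 2 of the 15 were called lower in oxaliplatin than in sorafenib, where 5.07% of all genes were. They were PFDN2 at -1.145 (adjusted p = 0.0102) and TBCA at -0.57 (adjusted p = 0.029).

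Of 18 other HSP90 co-chaperones, 10 were called lower and 1 higher in oxaliplatin against untreated, beside 15.5% and 16.2% of all genes, with a median log2 fold change of -0.57, against 0.02. RUVBL2 and RUVBL1, ATPases of the R2TP complex that assembles large protein complexes with HSP90, had -1.07 (SE 0.17, adjusted p = 0.0031) and -0.71 (SE 0.12, adjusted p = 0.00344). TOMM34, which binds both HSP70 and HSP90, had -0.65 (SE 0.10, adjusted p = 0.003). Those 3 were also lower in oxaliplatin than in sorafenib, at -0.67 (adjusted p = 0.0357) for RUVBL2, -0.48 (adjusted p = 0.0331) for RUVBL1 and -0.41 (adjusted p = 0.034) for TOMM34. Sorafenib against untreated gave 1 lower call among the 18, where 1.97% of all genes were called lower. It was PTGES3, the HSP90 co-chaperone p23, which averaged 372 ± 112 CPM in sorafenib and 647 ± 74.8 CPM in untreated libraries (SD, n = 3 each; log2 fold change -0.80, SE 0.19, adjusted p = 0.0457).

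Among 13 other mitochondrial chaperones and proteases, 2 were called lower and 1 higher in oxaliplatin against untreated, beside 15.5% and 16.2% of all genes, so neither share was above the background. Their median log2 fold change was -0.40, against 0.02 over all genes, and 11 of the 13 were negative. Of the 13, 7 had an unadjusted p under 0.05 in edgeR and DESeq2 called 5. LONP1, the matrix protease that degrades misfolded proteins, had -0.79 (SE 0.12, adjusted p = 0.00294), and TIMM44, which tethers HSPA9 to the import channel, had -0.75 (SE 0.17, adjusted p = 0.00915). GRPEL2, a nucleotide exchange factor of HSPA9, went the other way: it averaged 44.5 ± 23.4 CPM in oxaliplatin, 51.5 ± 28.8 CPM in sorafenib and 7.56 ± 1.85 CPM in untreated libraries (SD, n = 3 each). Its log2 fold change was 2.56 in oxaliplatin (SE 0.62, adjusted p = 0.018) and 2.77 in sorafenib (SE 0.62, adjusted p = 0.0482). Between the drugs 1 of the 13 was called, LONP1, lower in oxaliplatin than in sorafenib at -0.61 (adjusted p = 0.016), where 5.07% of all genes were called lower.

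In the list of other HSF1 targets and regulators, 2 of 15 were called lower and 1 higher in oxaliplatin against untreated, no more than the 15.5% and 16.2% of all genes. Their median log2 fold change was -0.24, against 0.02 over all genes, and 10 of the 15 were negative. HSBP1, which binds the HSF1 trimer, had -0.43 (adjusted p = 0.0103), HMOX1, a haem-degrading stress enzyme, had -0.87 (adjusted p = 0.0179), and HSF4 had 0.73 (adjusted p = 0.0294). Of 16 tested genes among the other HSP70 family and J proteins, 5 were called lower and 2 higher in oxaliplatin against untreated, beside 15.5% and 16.2% of all genes, led by DNAJC9, a J protein that handles histones, at -1.17 (SE 0.18, adjusted p = 0.00262). HSPBP1 and SGTA were the 2 called lower among 9 other HSP70 cofactors, again beside 15.5%, at -0.84 (adjusted p = 0.00723) and -0.48 (adjusted p = 0.0102). DNAJB2 was the 1 gene of that list of 16 called in sorafenib against untreated, where 4.80% of all genes were called, at -1.01 (SE 0.20, adjusted p = 0.0277). Between the drugs, 2 of the 16 were called lower in oxaliplatin than in sorafenib, beside 5.07% of all genes. They were DNAJC9 at -0.795 (adjusted p = 0.0232) and DNAJB12 at -0.42 (adjusted p = 0.0481). HSPB11 was called lower in both drugs against untreated, at -0.51 (adjusted p = 0.0165) in oxaliplatin and -0.55 (adjusted p = 0.0436) in sorafenib. CRYAA was called higher in oxaliplatin than in sorafenib (3.71, adjusted p = 0.0497), at low means of 1.52 and 0.107 CPM.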

How the data were processed

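Raw counts per gene were deposited by the authors for 60683 genes in each of 9 libraries, made with featureCounts against GRCh38, per the submitters' processing notes, which also name DESeq2. The aligner, annotation release, strand setting and handling of reads with several alignments are not given in the sources used here. TRIzol was used for RNA and the mRNA was sequenced on a NovaSeq machine, per the labels' protocols. Loci come from the files, and overlaps and exon lengths from the GENCODE 29 annotation.

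In R 4.3.3 with edgeR 4.0.16, genes were filtered with filterByExpr (16159 left), scaled by TMM factors, and fitted with its robust quasi-likelihood model, in which every group has a coefficient (common biological variation 0.224). Each of 3 comparisons was tested 2-sidedly, and p-values were adjusted over all genes tested. Standard errors are the absolute log2 fold change over the square root of F. Tried besides were DESeq2 1.42.0, scaling with RLE factors or with library size alone, leaving genes unfiltered or keeping those that average 1 CPM, fitting just the 2 groups compared, a block for the replicate number, a loess correction per library for GC content and length (span 0.5), summed counts of genes that share reads, and leaving out each library. Leaving out untreated 1 and sorafenib 1 together was added after seeing the data.

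The members, gene lists and tests were chosen with earlier results of these data known. By the rule for named genes, per-library values are given for members called in any comparison and for HSPA1A, HSPA1B, DNAJB1, BAG3, HSPB1, HSPH1, HSP90AA1 and HSF1, and each pathway list gives up to 3 called genes that average 1 CPM or more. Libraries of a group differed by more than sampling noise and were counted separately.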

Additional observations from a re-analysis of the deposited data

How the results depend on the processing

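Among the 40 genes, no log2 fold change of a called gene, or of one near the threshold, changed sign under any of the 19 alternatives. Of the 16 genes called in oxaliplatin against untreated 6 kept their call under all of them, as did 0 of 6 in sorafenib against untreated and 2 of 7 in oxaliplatin against sorafenib. Leaving out 1 library at a time gave 8 to 19, 0 to 11 and 3 to 8 calls among the 40 genes in these comparisons, and 2913 to 5403, 113 to 1743 and 572 to 1949 calls among all genes. The cause was not tested; such a fit has fewer samples.

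In oxaliplatin against untreated, the replicate number as a block gave 9 calls among the 40 genes, where the comparison had given 16. In sorafenib against untreated, the fit of 2 groups only called 2 of the 40 and 311 of all genes, the replicate block 1 and 184, and the omission of untreated 1 and sorafenib 1 16 and 2934, while DESeq2 called 1826 of all genes, where the comparison had given 6 and 775. In oxaliplatin against sorafenib the block called 809 of all genes, where there had been 1659. Same-numbered libraries did not deviate together over all genes tested (correlations of -0.145 to 0.064), which gave no sign of pairing by number. Such correlations cannot exclude an effect shared by only some genes. Counts of calls with the block are reported here only. Scaling by library size only put the median log2 fold change of all genes in oxaliplatin against untreated at 0.13, where TMM put it at 0.02, and ended the calls of DNAJB6, HSPB1, TCP1, CCT4, CCT5 and CCT6A there. HSPA1A had 8 to 510 counts and HSPA1B 13 to 21, and the standard errors of their log2 fold changes against untreated were 1.18 and 0.28 in oxaliplatin. Changes of those sizes, and larger ones, could therefore be missed. In sorafenib against untreated HSPA1A was not called at a log2 fold change of -1.51 (SE 1.24).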
